A study of Gallus gallus with 8 samples.

Results

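The insulin-like growth factor (IGF) family was followed through the ligands *IGF1* and *IGF2*, the receptors *IGF1R* and *IGF2R*, and the binding protein genes *IGFBP1*, *IGFBP2*, *IGFBP3*, *IGFBP4*, *IGFBP5* and *IGFBP7*. The members were taken as the rows of the deposited count table that carry these symbols, which gave 10 genes of the 24154 in the table. RNAseq was made from the intervertebral discs (IVDs) of chicken tails, with 4 libraries of fusing pygostyle IVDs, which degrade as the last tail vertebrae fuse, and 4 of free caudal IVDs, which are permanent. All birds were 10 wk old, and the labels name no treatment or genetic change for either tissue. The sample labels name the breed as white leghorn and the methods of the study name it as Tetra. The study calls the libraries of a tissue biological replicates. The RNA came from 8 birds, and how the birds were divided between the tissues was not given in the sources used here, so a p-value measures the spread between these libraries.

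IGF1 and IGF2 are secreted peptides that signal growth, survival and matrix synthesis through the tyrosine kinase receptor IGF1R, and cartilage and bone are among their classical targets. The IGF-binding proteins hold the ligands in the extracellular space, and proteases that cut the binding proteins set the ligands free again. Most of these roles were worked out in mammals.

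The libraries summed to between 12356953 and 18417470 counts in free IVDs and between 5682402 and 18434459 in fusing pygostyle IVDs. Expression is given as CPM, read counts relative to the library size after TMM scaling, which sets most genes level between libraries. This scaling bears on each fold change, because the 10 most abundant genes of a library took 34.3 to 44.4% of the counts in free IVDs and 17.97 to 25.2% in fusing pygostyle IVDs. Scaling to plain library totals moved the median log2 fold change of all tested genes up by 0.69. Fold changes are those of fusing over free IVDs, and a gene was called at an edgeR adjusted p under 0.05 and a change over 2-fold. The labelled tissue was checked with markers: the summed level of 11 chondrocyte genes was 156303 to 248329 CPM in free and 62658 to 176125 CPM in fusing libraries, with 1 gene of the list called higher and 2 lower and none at 0 in either tissue. *COL2A1* was the largest part of the sum, at a mean of 152383 CPM in free and 46029 CPM in fusing libraries. The median log2 fold change of the list was 0.22, against the direction of the sum, and the gene called higher was *MATN1* (3.63). In bulk tissue, fewer cells of a type and less RNA per cell cannot be told apart.

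Of the 10 members, 8 passed the filter on low counts and were tested, and *IGF1* and *IGFBP1* fell below it. *IGF2* and *IGFBP2* were called higher in fusing pygostyle IVDs and *IGFBP4* was called lower. Over all 13639 tested genes, 13.2% were called higher and 9.64% lower. The median log2 fold change of the 8 tested members was 0.42, beside 0.013 over all tested genes.

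**Figure D1:**
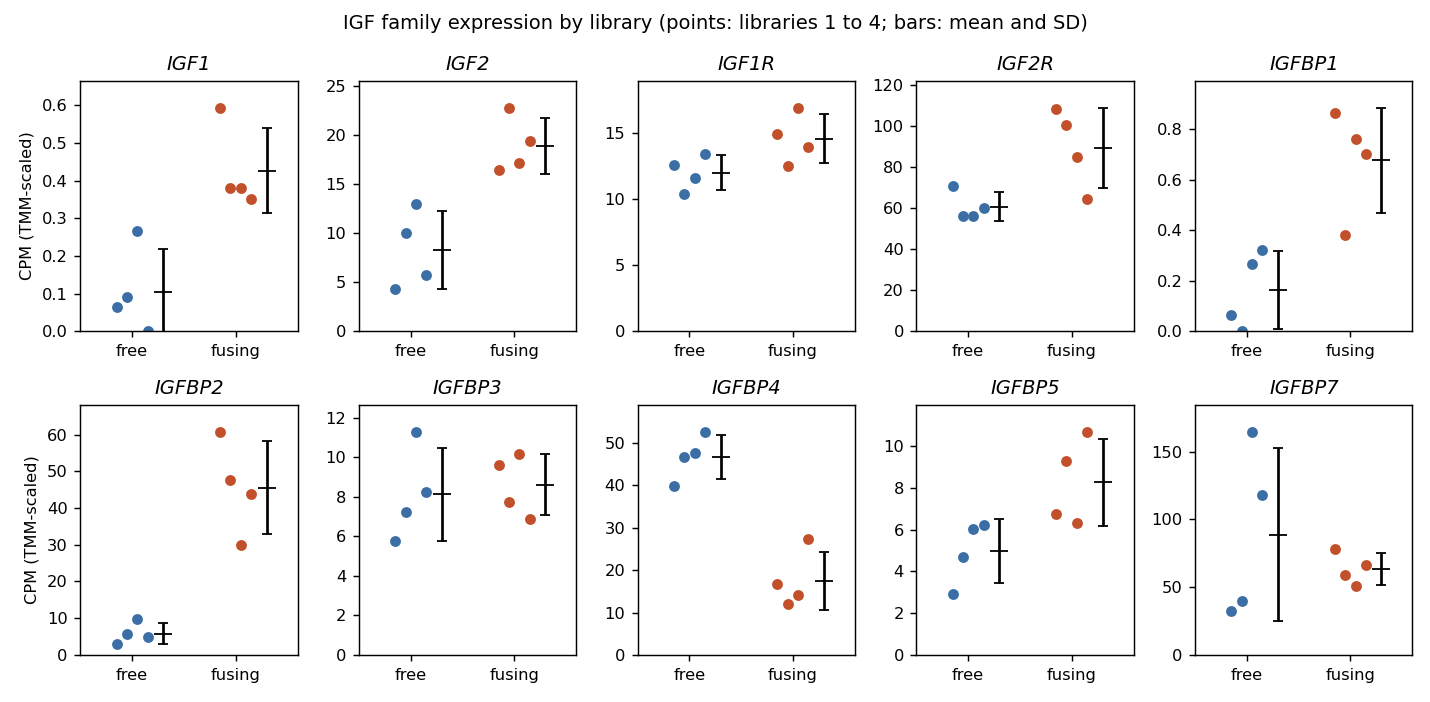
Expression of the 10 IGF family genes in CPM (linear axis from 0), each point 1 library of free (blue) or fusing pygostyle (orange) IVDs, with the mean and SD of the 4 libraries beside the points (the lower SD bar of IGF1 in free IVDs is clipped at 0). IGFBP2 lies between 2.91 and 9.72 CPM in free and between 29.9 and 60.8 CPM in fusing libraries, whereas the IGFBP7 points of free libraries spread from 32.4 to 165 CPM on both sides of the fusing ones.

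*IGF2* encodes the growth factor best known from fetal growth. It lies on chromosome 5 of the GRCg6a build, from 13964428 to 13981564, and shares 532 exon bases with LOC107053399 on the opposite strand, so its counts, made without regard to strand, are less certain. Its levels were 4.33, 10.0, 13.0 and 5.69 CPM in free replicates 1 to 4 and 16.5, 22.8, 17.1 and 19.4 CPM in fusing replicates 1 to 4. The lowest fusing library exceeded the highest free one, and the groups did not overlap. *IGF2* rose 2.29-fold, from 8.26 ± 3.98 to 18.9 ± 2.86 CPM (SD, n = 4 each; log2 fold change 1.20, SE 0.32, 95% interval 0.47 to 1.92, edgeR adjusted p = 0.0159). The interval reaches below the 2-fold limit, and without free replicate 1, the lowest library, the log2 fold change was 0.97 (edgeR adjusted p = 0.0274) and the call was lost.

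*IGF1*, the ligand that carries much of the postnatal action of growth hormone in mammals, was close to the limit of detection in these discs. It lies on chromosome 1, from 55281097 to 55329525. Counts were 1, 1, 3 and 0 in free replicates 1 to 4 and 11, 3, 5 and 8 in fusing replicates 1 to 4. The 5 counts of all free libraries and 27 of all fusing libraries give a scaled ratio of 4.09, with a 95% interval of 1.55 to 13.6 that covers counting error only. Without free replicate 3, which held 3 of the 5, the ratio was 7.77. In CPM, every fusing library lay above every free one, and in raw counts fusing replicate 2, the shallowest library, equalled free replicate 3. With no filter, edgeR over 20658 genes put the difference at 1.92 on the log2 scale (SE 0.69, adjusted p = 0.0640), which was not called.

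The balance of the ligands was compared as a ratio within each library, which the scaling between libraries does not affect. Per kb of exon, with 0.5 count added to each gene, *IGF2* was 8.20, 13.5, 7.68 and 19.5 times the level of *IGF1* in free replicates 1 to 4. In fusing replicates 1 to 4 it was 4.84, 9.34, 7.47 and 9.48 times that level. The groups overlapped, and *IGF2* was the more abundant ligand in each library. With *IGF1* counts of 1, 1, 3 and 0 in free replicates 1 to 4, the added 0.5 count weighs heavily in the free ratios. These ratios therefore also depend on depth, and that of free replicate 4 rests on a count of 0. The log2 ratio differed by -0.59 (fusing minus free, from 3.50 ± 0.64 to 2.91 ± 0.45, SD, n = 4 each), with a two-sided exact permutation p of 0.229, also 0.229 when adjusted over the 2 ratios tested.

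*IGF1R*, the signalling receptor of both ligands, lies on chromosome 10, from 17124349 to 17264663. It was at 12.6, 10.4, 11.6 and 13.4 CPM in free replicates 1 to 4 and at 14.95, 12.5, 16.9 and 13.9 CPM in fusing replicates 1 to 4. The groups overlapped through fusing replicate 2. The log2 fold change of *IGF1R* was 0.28 (SE 0.15, 95% interval -0.05 to 0.62, edgeR adjusted p = 0.162) and was not called. With this scaling, a 2-fold change in either direction lies outside the interval. With library totals the log2 fold change of *IGF1R* was 0.96 (edgeR adjusted p = 0.00115), just under the 2-fold limit.

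*IGF2R* encodes the cation-independent mannose 6-phosphate receptor, which sorts lysosomal enzymes and, in mammals, also takes up IGF2 for degradation, whereas the chicken receptor lacks high-affinity IGF2 binding. It lies on chromosome 3, from 45589702 to 45643799, and shares 388 exon bases with LOC107053026 on the opposite strand. It was at 70.8, 56.1, 56.2 and 59.9 CPM in free and at 108, 100.5, 84.6 and 64.2 CPM in fusing replicates 1 to 4. Fusing replicate 4 lay below free replicate 1, and the other fusing libraries lay above all free ones. The log2 fold change, 0.56 (SE 0.17, 95% interval 0.17 to 0.94, edgeR adjusted p = 0.0282), passed the limit on p and not the 2-fold limit. With library totals it was 1.258 (edgeR adjusted p = 0.000987) and was called higher. Without free replicate 2, 3 or 4 the edgeR adjusted p of *IGF2R* was 0.0708, 0.0692 and 0.0697, above the limit. Over all alternatives it reached 0.0897.

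*IGFBP2* showed the largest change of the tested members. IGFBP2 binds both ligands, with a preference for IGF2 in mammals, and carries motifs for integrins and proteoglycans. The gene lies on chromosome 7, from 23252168 to 23328028, and no other annotated gene overlaps it. Its levels were 2.91, 5.61, 9.72 and 4.94 CPM in free replicates 1 to 4. They were 60.8, 47.6, 29.9 and 43.7 CPM in fusing replicates 1 to 4, and the lowest of these was above the highest free value. *IGFBP2* rose 7.90-fold, from 5.79 ± 2.86 to 45.5 ± 12.7 CPM (SD, n = 4 each; log2 fold change 2.98, SE 0.36, 95% interval 2.18 to 3.79, edgeR adjusted p = 0.000339). Of all tested genes, 4.79% had a larger absolute log2 fold change. When each library was left out in turn, the log2 fold change lay between 2.74 and 3.35.

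*IGFBP4* moved the other way. In mammals IGFBP4 acts mainly as an inhibitor of IGF action and is cut by the protease PAPPA. The gene lies on chromosome 27, from 7262040 to 7267335. Its levels were 39.9, 46.7, 47.6 and 52.7 CPM in free replicates 1 to 4 and 16.6, 11.97, 14.2 and 27.4 CPM in fusing replicates 1 to 4. All fusing libraries lay below all free ones, with fusing replicate 4 the highest of them. *IGFBP4* fell 2.64-fold, from 46.7 ± 5.26 to 17.5 ± 6.82 CPM (SD, n = 4 each; log2 fold change -1.40, SE 0.24, 95% interval -1.94 to -0.86, edgeR adjusted p = 0.00182). Scaled to library totals its log2 fold change was -0.71 (edgeR adjusted p = 0.0217), which is under the 2-fold limit, so the call was lost. With RLE factors in place of TMM it was -1.40 (edgeR adjusted p = 0.00168) and was called lower.

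*IGFBP5*, which binds matrix and is the binding protein stored in mammalian bone, lies on chromosome 7, from 23231238 to 23249160, with 3007 bases between it and *IGFBP2*. It was at 2.91, 4.70, 6.01 and 6.22 CPM in free and at 6.75, 9.30, 6.32 and 10.7 CPM in fusing replicates 1 to 4. The groups did not overlap, although fusing replicate 3 lay close to free replicate 4. The difference on the log2 scale, 0.74 (SE 0.29, 95% interval 0.10 to 1.39, edgeR adjusted p = 0.0669), was not called, and with library totals it was 1.44 (edgeR adjusted p = 0.00250) and was called higher. Of the 8 tested members, *IGF2*, *IGFBP2* and *IGFBP5* had all fusing libraries above all free ones, and *IGFBP4* had them all below. Over all tested genes this held for 19.6% upward and 20.2% downward.

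The neighbours *IGFBP2* and *IGFBP5* were also compared within each library. Per kb of exon, *IGFBP2* was 0.342, 0.407, 0.552 and 0.272 times the level of *IGFBP5* in free replicates 1 to 4, and 3.07, 1.74, 1.61 and 1.40 times its level in fusing replicates 1 to 4. Per kb, *IGFBP5* was thus the higher of the pair in each free library and *IGFBP2* in each fusing one. The order in free IVDs rests on the annotated exon lengths, 6007 bases for *IGFBP2* and 2054 for *IGFBP5*. In raw counts of free replicates 1 to 4, *IGFBP2* had 45, 62, 110 and 46 and *IGFBP5* had 45, 52, 68 and 58. The log2 ratio went from -1.40 ± 0.43 to 0.90 ± 0.50 (SD, n = 4 each), a difference of 2.29 on the log2 scale. The two-sided exact permutation p was 0.0286, the smallest that 4 against 4 libraries allow, and 0.0571 when adjusted over the 2 ratios tested, so the difference did not pass the threshold after adjustment.

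*IGFBP3* is the main carrier of IGFs in mammalian blood, where it forms a complex with the acid-labile subunit. It lies on chromosome 2, from 54932446 to 54948020. It was at 5.75, 7.23, 11.3 and 8.26 CPM in free and at 9.61, 7.77, 10.2 and 6.88 CPM in fusing replicates 1 to 4, and the groups overlapped over nearly their whole range. The log2 fold change was 0.085 (SE 0.24, 95% interval -0.45 to 0.62, edgeR adjusted p = 0.809). Its direction changed when either free replicate 1 or fusing replicate 3 was left out. With library totals the log2 fold change of *IGFBP3* was 0.76 (edgeR adjusted p = 0.0259), under the 2-fold limit.

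*IGFBP1*, a binding protein of mammalian liver that insulin represses, lies 9680 bases from *IGFBP3* on chromosome 2, from 54916531 to 54922765. Its counts were 1, 0, 3 and 3 in free and 16, 3, 10 and 16 in fusing replicates 1 to 4. In raw counts fusing replicate 2 equalled the highest free libraries, and in CPM it lay just above them. The 7 counts of all free and 45 of all fusing libraries give a scaled ratio of 4.87 (95% interval 2.18 to 12.8, counting error only). With no filter, edgeR over 20658 genes put the difference at 2.11 on the log2 scale (SE 0.69, adjusted p = 0.0440) and called it higher, whereas with the filter it was not tested.

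*IGFBP7* binds IGFs only weakly and is a product of vascular endothelium in mammals. It lies on chromosome 4, from 49164546 to 49181417, and shares 596 exon bases with POLR2B on the opposite strand. Its levels were 32.4, 39.8, 165 and 118 CPM in free replicates 1 to 4 and 78.4, 59.0, 50.8 and 66.5 CPM in fusing replicates 1 to 4. Free replicates 1 and 2 lay below all fusing libraries and free replicates 3 and 4 above them. The log2 fold change was -0.48 (SE 0.47, 95% interval -1.54 to 0.59, edgeR adjusted p = 0.459), so neither a 2-fold rise nor a 2-fold fall can be called, and only the fall lies within the interval. The direction is not settled either, as the log2 fold change was 0.20 with library totals and 0.0044 without free replicate 3.

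The 10 endothelial markers, such as *PECAM1*, *CDH5* and *KDR*, summed to 181, 172, 530 and 477 CPM in free replicates 1 to 4 and to 301, 262, 263 and 295 CPM in fusing replicates 1 to 4. These sums fell into the same 3 levels as *IGFBP7*, with free replicates 1 and 2 lowest, fusing libraries between, and free replicates 3 and 4 highest. Not every marker did. *ERG* was at 80.9, 70.8, 79.4 and 95.2 CPM in free and 54.0, 35.1, 49.2 and 41.9 CPM in fusing replicates 1 to 4. Its log2 fold change was -0.85 (edgeR adjusted p = 0.00239). *TEK*, a receptor of endothelium, had all fusing libraries above all free ones. No endothelial marker was called by edgeR or DESeq2 and 1 by limma-voom (*TEK*). In edgeR 2 had an unadjusted p under 0.05, *ERG* and *TEK*, and none was at 0 in either tissue. The part of the endothelial markers in the result for *IGFBP7* was not tested.

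**Figure D2:**
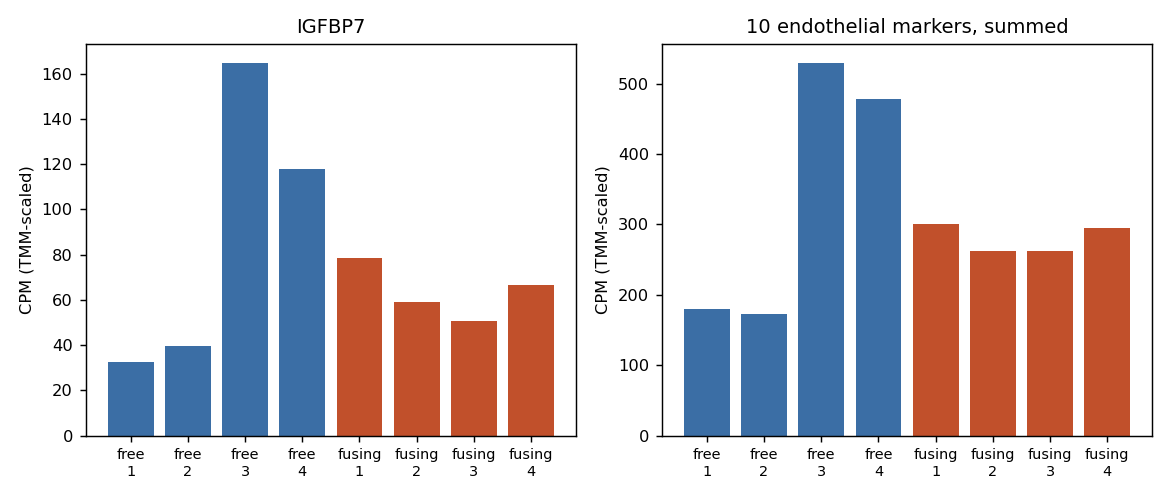
IGFBP7 (left) and the sum of 10 endothelial markers (right) in each library, in CPM on linear axes from 0, with free IVDs in blue and fusing pygostyle IVDs in orange. Both are highest in free replicates 3 and 4 (165 and 118 CPM for IGFBP7, 530 and 477 CPM for the markers) and lowest in free replicates 1 and 2.

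Markers of other cell types also differed between the tissues. The osteoblast list summed to 161 to 1561 CPM in free and 4509 to 6441 CPM in fusing libraries, with 8 of 10 genes called higher. The macrophage list summed to 41.0 to 70.4 CPM in free and 251 to 537 CPM in fusing libraries, with 10 of 10 called higher. The heterophil list, for the granulocytes that serve as neutrophils in birds, summed to 163 to 592 CPM in free and 2735 to 6094 CPM in fusing libraries, with 8 of 9 called higher. Over all tested genes, 13.2% were called higher. Some called markers of these lists passed the filter on low counts only through the fusing libraries. Among them were *MEPE* and *PHEX* (osteoblast), *MARCO* (macrophage), and *CXCR1* and *NCF4* (heterophil). Their calls rest on those same counts. The osteoblast, macrophage and heterophil sums moved in the direction of *IGF2* and *IGFBP2*, and their part in those results was not tested. The adipocyte list summed to 153 to 368 CPM in free and 75.5 to 172 CPM in fusing libraries, with 2 of 5 tested genes called higher and 1 lower. The gene called lower was *ADIPOQ*, the largest of the list in free IVDs, at a mean of 229 CPM in free and 31.0 CPM in fusing libraries. The median log2 fold change of the tested genes was 2.02, against the direction of the sum.

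The list for fibrous connective tissue moved in the direction of *IGFBP4*. It summed to 134919 to 369813 CPM in free and 31669 to 48504 CPM in fusing libraries, with 8 of 10 genes called lower. Over all tested genes, 9.64% were called lower. Of the genes called lower, *DPT* passed the filter on low counts only through the free libraries. The gene called higher was *PDGFRA* (log2 fold change 2.40). By histology, the study found fibroconnective tissue between the vertebrae in pygostyle discs only, and saw it expand during fusion. The sums are therefore not read here as the amount of this tissue. Skeletal muscle genes summed to 374, 412, 17.0 and 493 CPM in free replicates 1 to 4 and to 6.64, 10.3, 13.0 and 832 CPM in fusing replicates 1 to 4. Fusing replicate 4, with the highest *IGFBP4* of its group, also had the most muscle RNA. Free replicate 3, with the least muscle RNA of its group, had *IGFBP4* at 47.6 CPM, above free replicates 1 and 2 (39.9 and 46.7 CPM). No muscle gene was called by edgeR, DESeq2 or limma-voom, and 0 of 6 had an unadjusted p under 0.05. None of the markers of these lists was at 0 in either tissue, and their part in the result was not tested. Without fusing replicate 4, *IGFBP4* was still called lower, as it was when any other single library was left out.

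**Figure D3:**
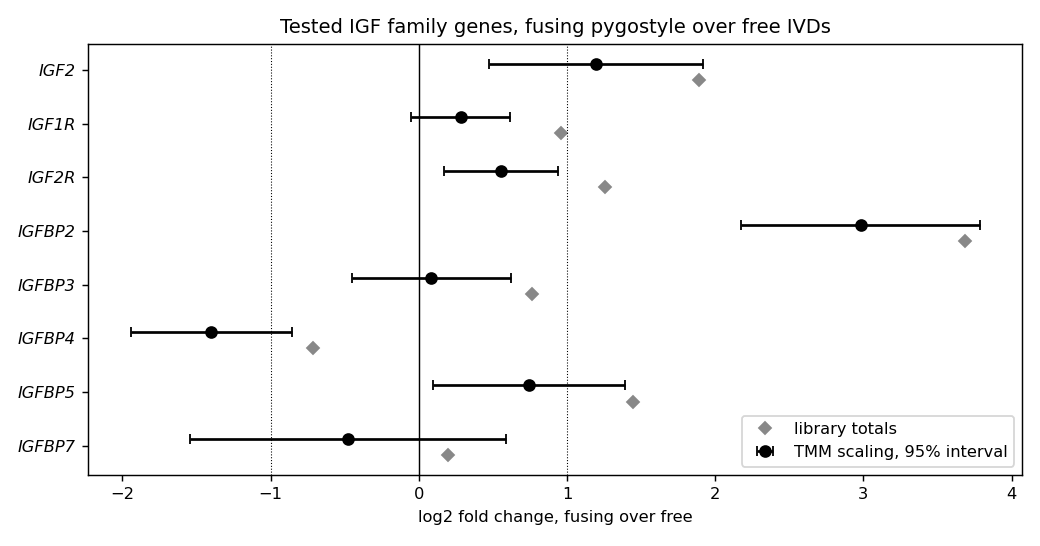
Log2 fold changes of the 8 tested IGF family genes, fusing over free IVDs, with the edgeR estimate and its 95% interval under TMM scaling (black) and the estimate under library totals (grey diamonds); dotted lines mark 2-fold. IGFBP2 lies above the 2-fold line under both scalings (2.98 and 3.69), IGFBP4 below it under TMM only (-1.40 and -0.71), and IGFBP7 changes sign (-0.48 and 0.20).

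Levels of different genes were compared per kb of annotated exon. In free IVDs, the order from the highest was *IGFBP4* with 25.9 ± 2.92 CPM per kb (SD, n = 4), *IGFBP7* with 23.0 ± 16.5, *IGFBP3* with 8.93 ± 2.58, *IGF2R* with 6.94 ± 0.790, *IGF1R* with 2.57 ± 0.279, *IGFBP5* with 2.42 ± 0.742, *IGF2* with 1.89 ± 0.911, *IGFBP2* with 0.964 ± 0.476, *IGF1* with 0.132 ± 0.142 and *IGFBP1* with 0.0969 ± 0.0921. The ranges of neighbours in this order overlapped, except between *IGF2R* and *IGF1R* and between *IGFBP2* and *IGF1*. In fusing pygostyle IVDs, *IGFBP7* came first with 16.5 ± 3.05 CPM per kb (SD, n = 4), followed by *IGF2R* with 10.2 ± 2.22, *IGFBP4* with 9.72 ± 3.78, *IGFBP3* with 9.45 ± 1.70, *IGFBP2* with 7.58 ± 2.12, *IGF2* with 4.33 ± 0.653, *IGFBP5* with 4.02 ± 1.02, *IGF1R* with 3.12 ± 0.397, *IGF1* with 0.535 ± 0.141 and *IGFBP1* with 0.403 ± 0.124. Here only *IGFBP7* with *IGF2R*, and *IGF1R* with *IGF1*, had ranges that did not overlap. *IGFBP2* moved from the 8th place to the 5th. These levels depend on the annotated exon lengths, which run from 797 bases for *IGF1* and 912 for *IGFBP3* to 8756 for *IGF2R*.

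The make-up of the binding protein transcripts was described as the share of each gene in the summed CPM per kb of the 6 IGFBP genes, a share within a library that the scaling between libraries does not change. *IGFBP4* held 57.1, 54.7, 30.6 and 40.1% in free replicates 1 to 4 and 17.1, 15.4, 19.3 and 28.7% in fusing replicates 1 to 4. *IGFBP2* held 1.25, 1.97, 1.88 and 1.13% in free and 18.8, 18.39, 12.2 and 13.8% in fusing replicates 1 to 4. Neither share overlapped between the tissues, and the mean went from 45.6 ± 12.5 to 20.1 ± 5.94% for *IGFBP4* and from 1.56 ± 0.429 to 15.8 ± 3.28% for *IGFBP2* (SD, n = 4 each).

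*IGFBP7* held a mean of 33.7 ± 14.2% in free and 34.5 ± 2.52% in fusing libraries. *IGFBP3* held 14.96 ± 1.97 and 20.3 ± 5.44%, *IGFBP5* 4.01 ± 0.633 and 8.50 ± 2.05%, and *IGFBP1* 0.136 ± 0.113 and 0.845 ± 0.250% (SD, n = 4 each). Of these shares, those of *IGFBP5* and *IGFBP1* did not overlap between the tissues and those of *IGFBP7* and *IGFBP3* did. The *IGFBP1* share rests on 7 counts over all free libraries. In CPM, 19.6% of all tested genes had all fusing libraries above all free ones, and 20.2% had them all below. Being shares of 1 total, they are not independent of each other, and no test was made on them.

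**Figure D4:**
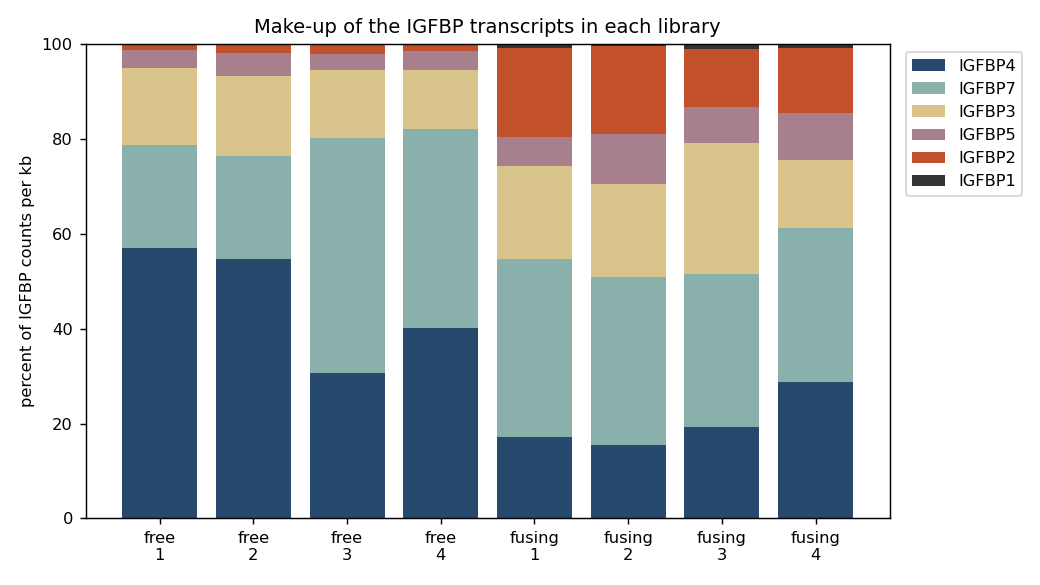
Share of each IGFBP gene in the summed counts per kb of the 6 IGFBP genes, in percent, 1 bar per library. The IGFBP4 share (dark blue) is 30.6 to 57.1% in free and 15.4 to 28.7% in fusing libraries, and the IGFBP2 share (orange) goes from 1.13 to 1.97% in free to 12.2 to 18.8% in fusing libraries.

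The 6 binding protein genes together were at 38.7, 47.4, 86.2 and 72.9 CPM per kb in free replicates 1 to 4 and at 54.0, 43.1, 40.7 and 52.9 in fusing replicates 1 to 4, which overlapped. The 2 ligands together were at 1.07, 2.41, 3.30 and 1.30 CPM per kb in free and at 4.51, 5.69, 4.39 and 4.87 in fusing replicates 1 to 4, which did not. Binding protein transcripts per ligand transcript were thus 36.2, 19.7, 26.1 and 56.1 in free and 11.98, 7.58, 9.27 and 10.9 in fusing replicates 1 to 4. Each fusing library lay below each free one in this ratio, which is given as a description of transcripts and says nothing of protein. The ratio depends on the annotated exon lengths. It also counts *IGFBP7*, whose product binds IGFs only weakly and which held a mean of 33.7% of the binding protein sum in free and 34.5% in fusing libraries.

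Genes whose pattern over the 8 libraries was most like that of a called member were found by Pearson's r of log2 CPM among the 10521 genes that averaged 5 CPM or more. The points share libraries and depth and fall into 2 tissues, so r also measures how far a gene follows that difference. For *IGFBP2* these were *NT5E* (r = 0.995), an ectoenzyme that makes adenosine, and *BASP1* (0.993). For *IGF2* they were *OSBPL10* (0.967), *ARHGAP28* (0.967) and *BLA* (0.965). For *IGFBP4* they were *JMJD8* (0.993), *NR2F2* (0.985), a nuclear receptor, and LOC107055339 (0.984).

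The genes around the family were taken from 5 lists of 67 names, of which 59 were tested. Of these, 7 were called higher and 7 lower. Their median log2 fold change was -0.05, beside 0.013 over all tested genes. Of all tested genes, 22.8% were called in either direction. Among those that act on the ligands and binding proteins outside the cell 7 of 10 were called, in the receptor cascade 4 of 32. The 7 include *IGFALS*, *ADAM28* and *PAPPA2*, which passed the filter on low counts only through the tissue where they were higher.

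**Figure D5:**
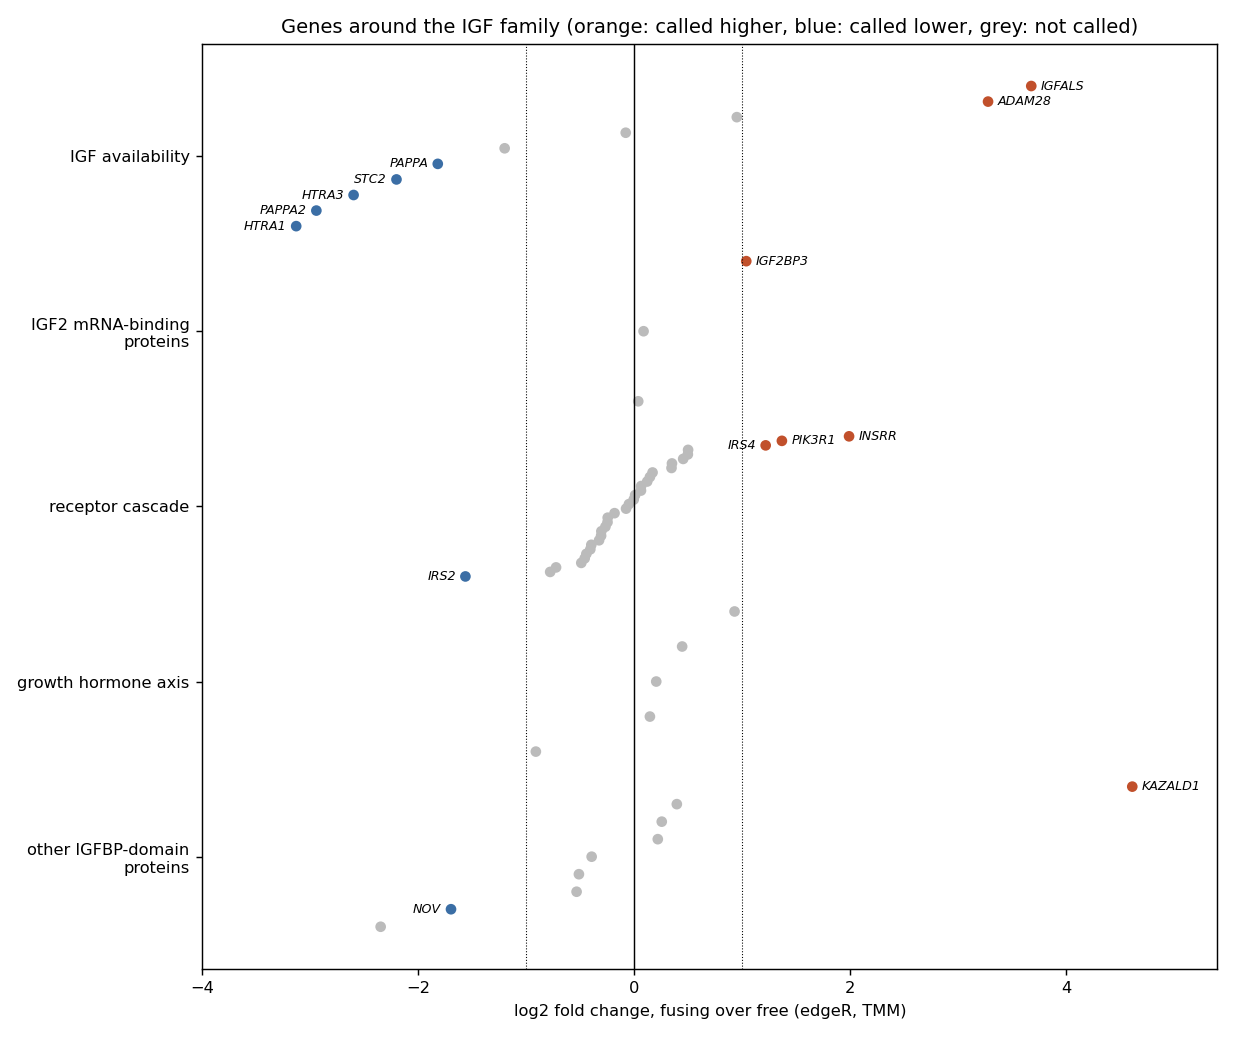
Log2 fold changes of the 59 tested genes in 5 lists around the IGF family, fusing over free IVDs, 1 point per gene and ordered by value within a list; called genes are named, dotted lines mark 2-fold. In the list of genes for IGF availability, 5 lie at -1.82 or below and 2 at 3.28 or above, whereas most of the receptor cascade lies within 2-fold.

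Of the 10 tested genes for IGF availability, 5 fell and 2 rose in fusing pygostyle IVDs. *HTRA1*, a secreted serine protease that cuts IGFBP5 in human cells, was at 2200, 1975, 1202 and 1685 CPM in free and at 205, 109, 280 and 212 CPM in fusing replicates 1 to 4, and fell by 3.13 on the log2 scale (SE 0.32, edgeR adjusted p = 0.000175). Its relative *HTRA3* fell by 2.60 (SE 0.23, edgeR adjusted p = 9.63e-05), from 1118 ± 178 to 185 ± 46.4 CPM (SD, n = 4 each). For both, every fusing library lay well under every free one.

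*PAPPA*, the metalloprotease that cuts IGFBP4 in mammals, was at 112, 101, 97.2 and 101 CPM in free and at 35.3, 21.1, 33.1 and 26.4 CPM in fusing replicates 1 to 4. The groups did not overlap, and *PAPPA* fell by 1.82 on the log2 scale (SE 0.16, edgeR adjusted p = 0.000103). Its relative *PAPPA2* was low, at 3.04, 1.36, 1.15 and 3.22 CPM in free and 0.108, 0.127, 0.0761 and 0.658 CPM in fusing replicates 1 to 4. It fell by 2.94 (SE 0.66, edgeR adjusted p = 0.00697). On the log2 scale it fell by 4.30 without fusing replicate 4, which held 15 of its 19 fusing counts, and by 2.74 without free replicate 1. Under the stricter filter *PAPPA2* was not tested. *STC2*, a stanniocalcin that inhibits these proteases in mammals, was at 340, 1039.8, 168 and 315 CPM in free and at 98.1, 63.9, 153 and 89.3 CPM in fusing replicates 1 to 4. It fell by 2.20 (SE 0.54, edgeR adjusted p = 0.0103). It fell by 1.45 when free replicate 2, where it was highest, was left out. *STC1*, the other stanniocalcin, had a log2 fold change of -1.20 and an edgeR adjusted p of 0.182.

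The members of this list that rose were both low in free IVDs. *IGFALS* encodes the acid-labile subunit, a liver product in mammals. It had 3 counts over all free and 57 over all fusing libraries, a scaled ratio of 14.4 (95% interval 4.68 to 71.8, counting error only). Counts were 2, 0, 0 and 1 in free and 22, 7, 10 and 18 in fusing replicates 1 to 4. *IGFALS* thus passed the filter only through the fusing libraries. Its call as higher (edgeR adjusted p = 0.00174) rests on those same counts. Without free replicate 1, which held 2 of the 3 counts, its log2 fold change went from 3.68 to 4.48, and under the stricter filter it was not tested. *ADAM28*, a metalloprotease that cuts IGFBP3 in human cells, was at 0.776, 0.362, 1.33 and 0.429 CPM in free and at 8.26, 10.3, 3.65 and 6.58 CPM in fusing replicates 1 to 4. No fusing library reached down to the free ones, and the log2 fold change of *ADAM28* was 3.28 (SE 0.47, edgeR adjusted p = 0.000754). *CTSD*, a lysosomal protease, had a log2 fold change of 0.95 (edgeR adjusted p = 0.000740), just under the 2-fold limit. *ADAM12* had one of -0.08 (edgeR adjusted p = 0.877).

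In the receptor cascade, 3 of 32 tested genes were called higher and 1 lower, and the median log2 fold change was -0.06. The docking proteins IRS2 and IRS4, which carry the signal from the insulin and IGF1 receptors, moved in opposite directions. *IRS4* was at 53.3, 41.7, 91.2 and 76.9 CPM in free and at 120, 140, 207 and 144 CPM in fusing replicates 1 to 4 (log2 fold change 1.22, SE 0.27, edgeR adjusted p = 0.00604). *IRS2* was at 47.7, 52.8, 30.3 and 41.2 CPM in free and at 20.7, 7.26, 22.1 and 7.80 CPM in fusing replicates 1 to 4 (log2 fold change -1.56, SE 0.38, edgeR adjusted p = 0.0101). Neither gene overlapped between the tissues, and with library totals the log2 fold change of *IRS2* was -0.88 and its call was lost.

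*INSRR*, an orphan relative of the insulin receptor that senses alkaline pH in mammals, rose from 1.96 ± 1.25 to 7.79 ± 2.82 CPM (SD, n = 4 each; log2 fold change 1.99, SE 0.43, edgeR adjusted p = 0.00556). *PIK3R1*, a regulatory subunit of phosphoinositide kinase, rose from 9.70 ± 2.23 to 25.0 ± 9.25 CPM (log2 fold change 1.37, SE 0.28, edgeR adjusted p = 0.0046). The insulin receptor gene *INSR*, singled out after its values were seen, was at 55.9 ± 11.1 CPM in free and 46.4 ± 3.47 CPM in fusing libraries (log2 fold change -0.27, 95% interval -0.60 to 0.06, edgeR adjusted p = 0.182), and its direction turned with library totals. *EIF4EBP1*, a repressor of translation under mTOR and the most abundant gene of the list per kb, had 92.9 ± 8.74 and 97.0 ± 19.2 CPM (log2 fold change 0.06, SE 0.15, edgeR adjusted p = 0.784).

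Of the 3 IGF2 mRNA-binding proteins, which bind *IGF2* and other transcripts, *IGF2BP3* was called higher. It was at 4.39, 6.69, 5.13 and 6.01 CPM in free and at 10.6, 16.8, 8.22 and 10.2 CPM in fusing replicates 1 to 4, with no overlap. On the log2 scale it rose by 1.04 (SE 0.25, edgeR adjusted p = 0.00992), which is at the 2-fold limit. The call was lost without free replicate 1 (0.93), free replicate 3 (0.99) or fusing replicate 2 (0.80). The gene overlaps MALSU1. *IGF2BP2*, the most abundant of the 3 per kb, had a log2 fold change of 0.09 (edgeR adjusted p = 0.81) and *IGF2BP1* one of 0.04 (edgeR adjusted p = 0.926).

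None of the 5 tested genes of the growth hormone axis was called by edgeR or DESeq2, and limma-voom called 1, *CISH*, a feedback inhibitor of cytokine signals whose gene overlaps HEMK1. With the replicate number as a block edgeR called *CISH* as well (log2 fold change 1.06, adjusted p = 0.0344), against 0.93 (adjusted p = 0.0656) without it. In edgeR 2 of the 5 had an unadjusted p under 0.05 and 1 an adjusted p under 0.05, the growth hormone receptor gene *GHR*, which was singled out after its values were seen and overlaps LRP1_1. *GHR* was at 59.1, 57.0, 52.5 and 54.0 CPM in free and at 29.3, 23.4, 45.7 and 19.95 CPM in fusing replicates 1 to 4, without overlap. The difference was -0.91 on the log2 scale (SE 0.23, edgeR adjusted p = 0.0128). Without fusing replicate 3 it was -1.21, which passed the 2-fold limit, and with library totals it was -0.24 (edgeR adjusted p = 0.335). *STAT5B*, which relays the signal of this receptor, was 0.44 higher on the log2 scale (SE 0.20, edgeR adjusted p = 0.116), which was not called. Growth hormone itself (*GH*) had 0 counts in all 8 libraries, and a count of 0 allows up to 3.

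Other proteins with an IGFBP domain hold the largest rise among the genes around the family. *KAZALD1*, which is expressed in mammalian bone, was at 0.582, 1.18, 2.03 and 0.858 CPM in free and at 28.2, 36.0, 14.6 and 34.2 CPM in fusing replicates 1 to 4. The lowest fusing library was far above the highest free one (log2 fold change 4.61, SE 0.42, edgeR adjusted p = 0.000111). With 9, 13, 23 and 8 counts in free replicates 1 to 4, *KAZALD1* passed the filter on low counts only through the fusing libraries. Its call as higher rests on those same counts. *NOV* (CCN3), a matricellular protein, was at 904, 518, 816 and 924 CPM in free and at 117, 177, 390 and 291 CPM in fusing replicates 1 to 4, and fell by 1.70 on the log2 scale (SE 0.37, edgeR adjusted p = 0.00576). Its relative *CTGF* (CCN2), the most abundant of the list per kb, was at 1206 ± 709 CPM in free and 1403 ± 493 CPM in fusing libraries (SD, n = 4 each; log2 fold change 0.22, SE 0.47, edgeR adjusted p = 0.747), and its direction turned when free replicate 2 or fusing replicate 3 was left out. The other 6 tested genes of this list were not called.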

How the data were processed

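RNAseq libraries were made from polyA-selected mRNA of 4 free caudal and 4 fusing pygostyle IVD samples, grouped by the tissue and replicate number of their titles. The authors aligned unstranded read pairs to GRCg6a with STAR and counted them per gene with featureCounts. They deposited whole-number counts for 24154 genes, without normalization. A second deposited table holds the authors' own DESeq2 comparison (mean normalized counts, log2 fold changes, standard errors and p-values) and was not used.

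The tissues were compared by the quasi-likelihood test of edgeR 4.0.16 in R 4.3.3, with TMM normalization and tissue as the sole term, over 13639 genes that passed filterByExpr (minimum count 10, minimum total 15). P-values were Benjamini-Hochberg adjusted over all of them, and calls needed an adjusted p under 0.05 with a log2 fold change above 1 or below -1. Standard errors were taken from the test statistic. Where a log2 CPM was needed, a prior count of 2 was used. Intervals are at 95%. Permutation tests are exact and two-sided, and 0.5 count was added to both genes of a ratio because 1 library had no *IGF1* count. Positions and exon lengths come from the deposited annotation, and chromosome numbers from a match of symbols to a RefSeq gene table of another build. Reads were counted without strand, so overlapping genes are less certain. Fits were tested on simulated data.

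The members and lists were chosen with earlier results of these data known. Named genes are all members, each called gene of the lists, the most abundant gene of each list per kb, and the 3 genes most like a called member, of which 1 is not reported here. Other genes are given where a list is described. HTRA4, IRS1, AKT2, GSK3A, STAT5A and IGFBPL1 were not analysed here.

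Both tissues carry replicate numbers 1 to 4. Deviations from the tissue means correlated at 0.242, 0.159, 0.115 and 0.253 between libraries of the same number. Between libraries of different numbers the correlations ran from -0.226 to 0.191, so these values do not settle a pairing. The numbers in the sample codes, some of which recur in both tissues, give the same pairing for replicates 1 and 4. They pair free replicate 2 with fusing replicate 3, which correlated at -0.0611. Free replicate 3 and fusing replicate 2 have no partner by these codes. The replicate numbers were taken as pairs only in the alternative with a replicate block, and the sources do not say what they mark. All pairs of replicates differed by more than counting noise. Alternatives were DESeq2 1.42.0, limma-voom (limma 3.58.1), RLE factors, library totals, no filter, a stricter filter, the replicate number or the number in the sample code as a block, and each library left out.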

Additional observations from a re-analysis of the deposited data

Results flagged for a closer look

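Of 36 groups of 4 libraries examined with Dixon's ratio, 1 held a library far from the others, and chance alone gives about 1 in 20. It was the *IGF1* level of fusing replicate 1, at 0.594 CPM, against 0.351 to 0.382 CPM in the other fusing libraries (ratio of the gap to the range 0.871). It rests on 11 counts, and without this library the scaled ratio of summed *IGF1* counts was 3.45 in place of 4.09. The ratio moved further without free replicate 3, to 7.77.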

How the results depend on the processing

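DESeq2, limma-voom, RLE factors, the stricter filter and both blocks called the same 3 members in the same directions. The sample code block rests on fewer libraries, because free replicate 3 and fusing replicate 2 have no partner in it. With the replicate block, the pairing gave 2 members higher and 1 lower, 1856 genes higher and 1320 lower, and 8 and 7 genes of the lists. It added the call of *CISH* (1.06) and changed no other call of a named gene. Within the pairs the mean ratio differences, -0.59 and 2.29, equal those between the tissue means by arithmetic, whatever the pairing. The 4 pairs allow no p under 0.125. Library totals called 4 members higher (*IGF2*, *IGF2R*, *IGFBP2*, *IGFBP5*) and 0 lower, 4174 genes higher and 625 lower (87.0% of the called genes were higher, against 57.7% with TMM), and 16 and 6 genes of the lists. They reversed *IGFBP7* (0.20) and *INSR* (0.42). The sample code block reversed *IGFBP7* (0.27), *EIF4EBP1* (-0.0315) and *IGF2BP2* (-0.0626), and under it *NOV* (-1.67, edgeR adjusted p = 0.0652) and *IGF2BP3* (0.78) were no longer called, nor was *IGF2BP3* with limma-voom (0.97). With no filter 3 members were called higher, *IGFBP1* being added. Leaving out each library in turn gave 1 to 3 members higher and 1 lower, 1589 to 1986 genes higher and 1225 to 1483 lower, and 6 to 8 and 7 to 8 genes of the lists. *IGFBP1* passed the filter in some of these fits, only through fusing libraries, and was called in 4 of them. It had 16, 3, 10 and 16 counts in fusing replicates 1 to 4 and at most 3 in a free library. These calls are therefore not separate support for a rise. Over them the log2 fold change ran from -0.76 to 0.0044 for *IGFBP7*, from -0.0615 to 0.28 for *IGFBP3*, from -0.0822 to 0.57 for *CTGF*, from -0.0276 to 0.30 for *IGF2BP2* and from -0.0581 to 0.12 for *EIF4EBP1*. The ratio difference ran from 2.05 to 2.47 for *IGFBP2* to *IGFBP5* and from -0.78 to -0.33 for *IGF2* to *IGF1*. As shares of raw counts, not divided by length, *IGFBP2* held 3.88% in free and 31.2% in fusing libraries and *IGFBP4* 35.0 and 12.1%. Depth limits *IGF1* and *IGFBP1*, with 16 counts at most in a library.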
